A study of Mus musculus with 9 samples.

Results

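The genes described here serve the import of proteins into mitochondria and their folding in the matrix. They were chosen by name: every gene of the table beginning with Tomm (9 genes) or Timm (13 genes), and 9 others, namely Hspd1, Hspe1, Hspa9, Trap1, Pitrm1, Pmpca, Pmpcb, Grpel1 and Dnaja3. Together they make 31 of the 13539 genes listed. They were measured by RNA-seq of total RNA from heart tissue of male mice aged 12 weeks, with the nuclear background C57BL/6JOlaHsd, in 3 groups of 3 libraries. The first group was wild type and received isoproterenol, a beta-adrenergic agonist that drives the heart chronically, by minipump at 10 mg/kg per day over 7 days. The second lacked OMA1, a stress-activated protease of the mitochondrial inner membrane, and was not treated. The third lacked OMA1 and received the same isoproterenol course. The labels do not say how the knockout was made, in which cells it acts, or whether untreated animals carried a pump, so pump and drug cannot be told apart. Wild-type hearts without treatment are not analysed here, so treatment could be followed in knockout hearts only, and whether its effect depends on genotype was not tested.

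Most mitochondrial proteins are made in the cytosol as precursors and enter through the TOM complex of the outer membrane. Precursors with a presequence then pass the TIM23 complex of the inner membrane, pulled by a motor built on the matrix Hsp70, while carrier proteins are escorted by small TIM chaperones to the TIM22 complex. In the matrix the presequence is cut off and degraded, and the protein is folded by Hsp70 and by the Hsp60-Hsp10 chamber, a route on which the mitochondria-rich heart muscle depends for most of its respiratory enzymes.

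Values are the deposited normalized counts, which are scaled between libraries but not divided by transcript length. The libraries held between 6933879 and 12187701 reads over the listed genes. As a check of the labels, Oma1 itself stood at 19.9 ± 2.16 (SD, n = 3) in treated wild-type hearts, 6.24 ± 0.502 in treated knockout hearts and 7.42 ± 1.46 in untreated knockout hearts. All 8 cardiomyocyte markers were present in every library, and their summed levels are given by group below. Transcripts of the mitochondrial genome took 33.9% to 34.6% of the reads in untreated knockout, 36.7% to 37.3% in treated wild-type and 38.2% to 42.5% in treated knockout libraries. Treated knockout replicate 2, with the highest such share, gave the lowest of the 9 values for 12 members and the highest for 5. Treated wild-type replicate 3 gave the lowest for 10 members and the highest for 0.

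Differences are given on the log2 scale of the value plus 1, with their standard error, from a limma fit over all 9 libraries and the 8543 genes that reached a value of 10 in at least 3 libraries. All 31 members passed this filter. A gene is called when its Benjamini-Hochberg adjusted p over those 8543 genes is under 0.05. The labels do not state that the libraries of a group came from separate animals, so p-values measure only the spread between these libraries. In whole tissue, fewer cells of a type and less RNA per cell cannot be told apart.

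Treated knockout was compared with treated wild type to see how hearts without OMA1 differ under adrenergic load. The presequence-handling and folding genes Pmpca, Pitrm1, Trap1 and Dnaja3, the import motor Hspa9 and the receptor Tomm70a were lower in the knockout. The small subunits Tomm7, Tomm6 and Timm13 were higher, and the channel genes Tomm40 and Timm23 were not called. In all, 9 of 31 members were called (29.0%), beside 27.8% of all genes tested. Of these, 3 were higher, beside 12.0% of all genes, and 6 were lower, beside 15.9%. The share of members called was near that of all genes, and the median difference was -0.08 for the members and -0.01 for all genes.

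Treated knockout was compared with untreated knockout to see what the isoproterenol course changed in hearts without OMA1. Here 12 of 31 members were called (38.7%), a smaller share than the 51.4% of all genes. Tomm7 and Timm8b were higher, 2 members beside 23.9% of all genes, and 10 members were lower, beside 27.4%. Dnaja3, Hspd1, Pitrm1, Tomm40l, Trap1 and Pmpca fell furthest, with a ratio of group means from 0.645 for Dnaja3 to 0.705 for Pmpca. The median difference was -0.09 for the members and -0.02 for all genes.

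Treated wild-type and untreated knockout hearts differ in genotype and in treatment at once, so this comparison separates neither. It called 9 members (29.0%), beside 33.2% of all genes. All 9 were lower in treated wild-type hearts, beside 16.9% of all genes, and 0 were higher, beside 16.4%. The count of higher members was also 0 at an unadjusted limma p under 0.05, and 0 by edgeR and by DESeq2. It was 1 when libraries were scaled to genes outside the mitochondrial genome, namely Timm8b (0.22, limma adjusted p = 0.043). The 9 were Hspd1, Tomm40l, Timm13, Pitrm1, Tomm34, Trap1, Dnaja3, Pmpca and Tomm40. Each group takes part in 2 of the 3 comparisons, so their values are set side by side below and are not independent of each other.

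**Figure D1:**
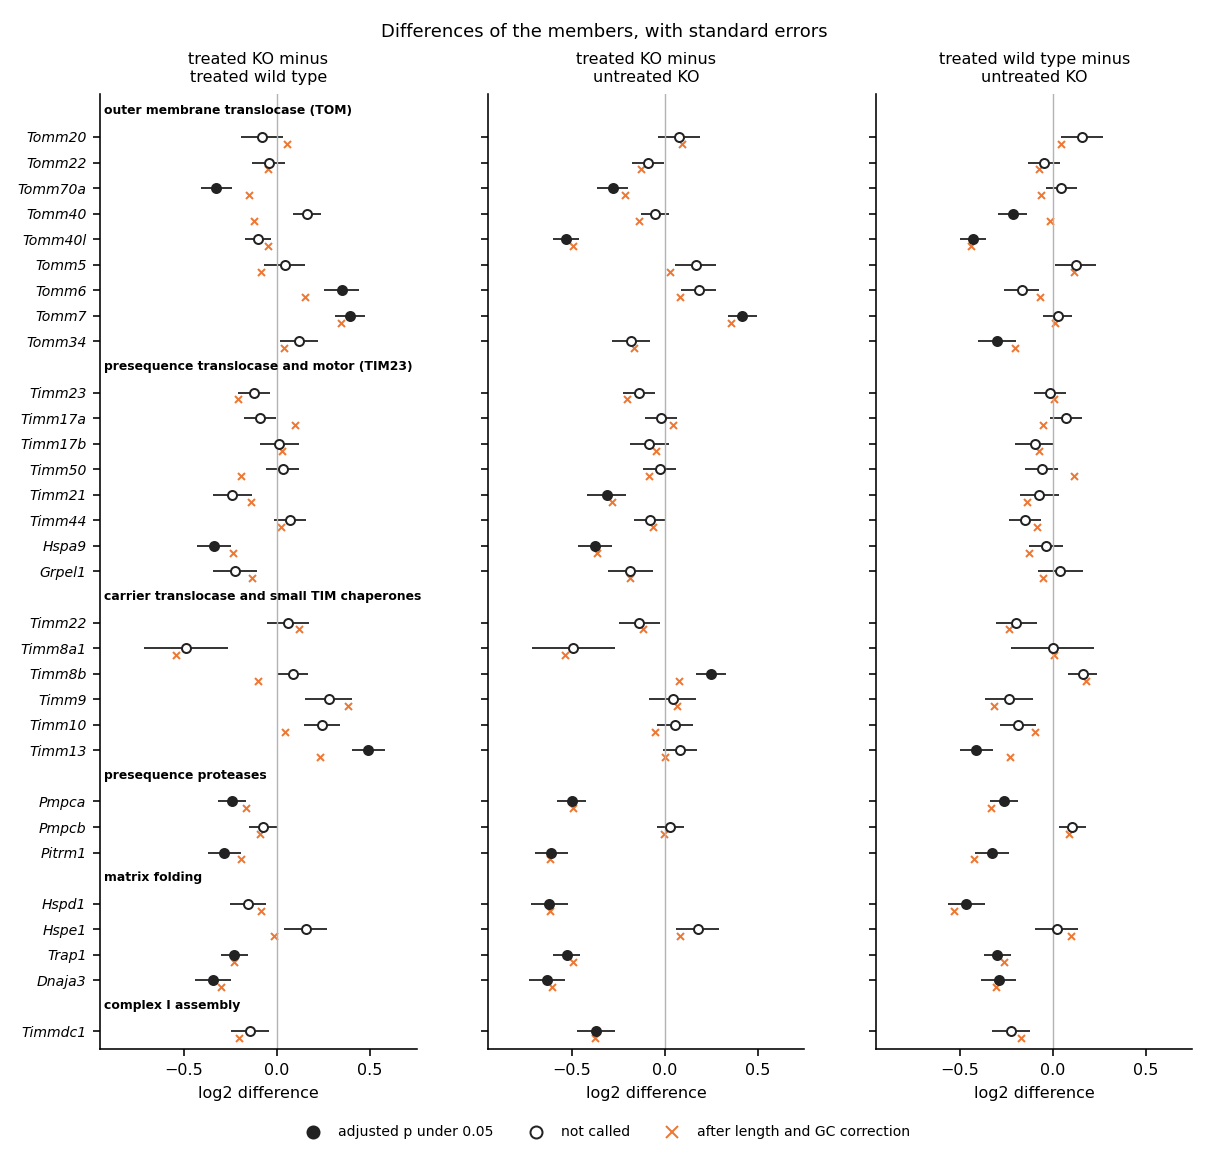
Log2 difference of each member (horizontal axis, log2 units) in the 3 comparisons, grouped by role, with bars for the standard error of the limma fit and filled points for an adjusted p under 0.05. Crosses give the difference once length and GC content were corrected for, and Tomm7 lies above 0 in both comparisons of treated knockout hearts (0.39 and 0.42), while Pmpca, Pitrm1, Trap1 and Dnaja3 lie below 0 in all 3.

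Of the 31 members, 4 were called in all 3 comparisons, and these were Pmpca, Pitrm1, Trap1 and Dnaja3 (12.9% of the members, beside 5.38% of all genes tested). In each of them every untreated knockout library lay above every treated wild-type library, and every treated wild-type library above every treated knockout library, an order found in 5.22% of all genes tested. The members were not drawn at random, and the 3 comparisons share their libraries, so these shares are a description. Between the treated groups Pitrm1 was called in 11 of 20 alternative fits, Trap1 in 12, Pmpca in 13 and Dnaja3 in 18. After the length and GC correction described below, Pmpca and Pitrm1 were not called between the treated groups. Dnaja3 was called in 13 of 20 alternative fits between treated wild type and untreated knockout. Tomm70a, Tomm7 and Hspa9 were called in both comparisons of treated knockout hearts but not between the other two groups. In 15 members no comparison was called, among them the receptors Tomm20 and Tomm22, most of the TIM23 core and the co-chaperonin Hspe1. The shares of all genes with these other patterns were not computed, so such counts are not set apart from the background.

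**Figure D2:**
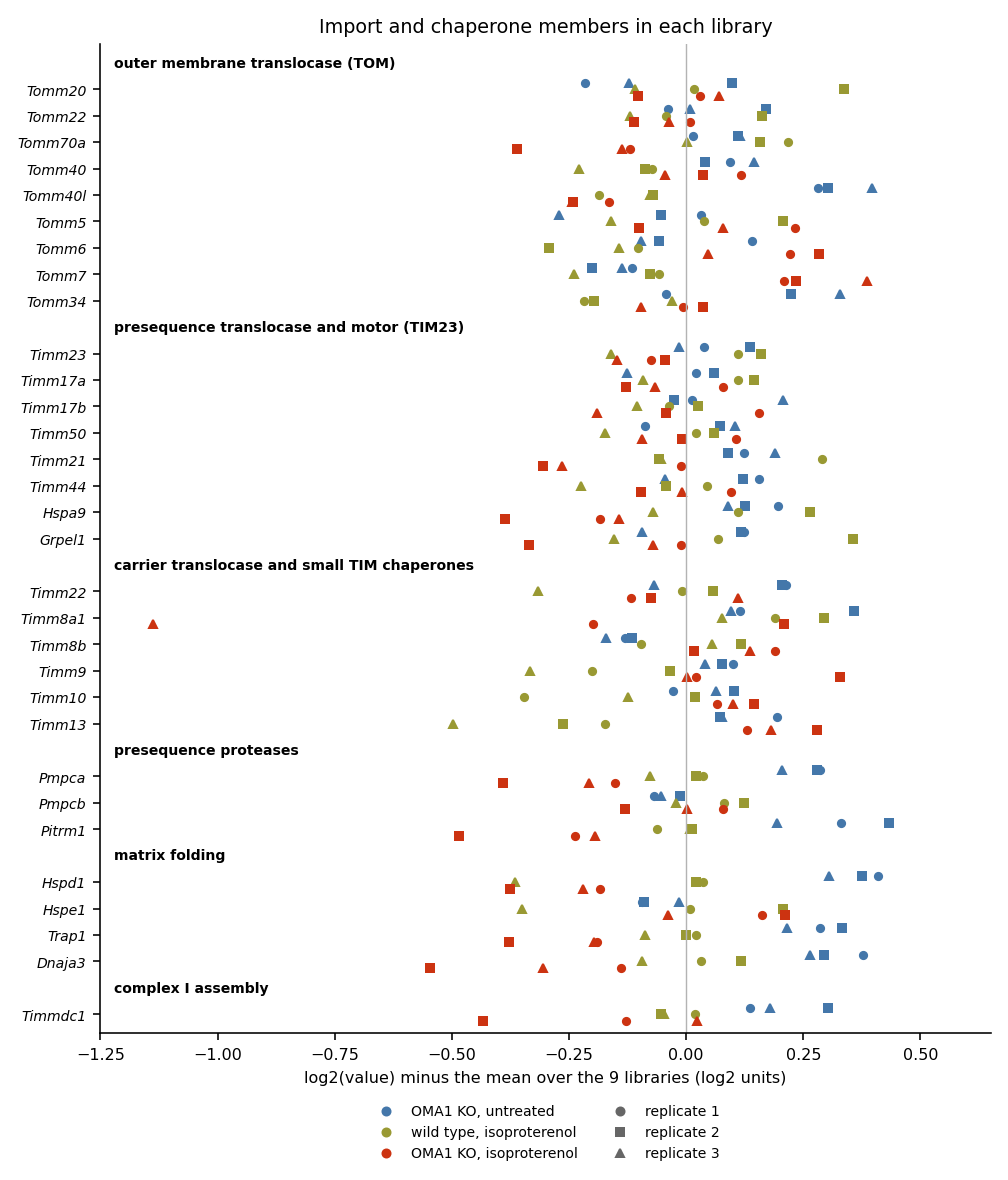
Log2 value of each member in each of the 9 libraries, minus the member's mean over the 9 (horizontal axis, log2 units), with colours for the groups and symbols for the replicates. Untreated knockout, treated wild-type and treated knockout points follow each other without overlap in Pmpca, Pitrm1, Trap1 and Dnaja3, and treated knockout points stand alone on the high side in Tomm7 and on the low side in Tomm70a and Hspa9.

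Promoter windows are shown for those 4 ordered members because their groups followed the same order. They are also shown for Hspd1 and Hspe1, because these neighbours share a promoter region and only Hspd1 was called. Each window is a RefSeq sequence of 300 bases on GRCm38.p6, from upstream of the annotated start to 50 bases beyond it, written on the strand of the gene. Capitals mark matches to the motifs searched, which were TTCNNGAA and GAANNTTC (heat shock element repeats, which can overlap each other), the NRF1 motif, CCGGAAGT (ETS/GABP, which can overlap TTCNNGAA) and TCAAGGTCA (oestrogen-related receptor), on both strands. Pmpca lies at chr2:26389098-26389397 (+), Pitrm1 at chr13:6547907-6548206 (+), Trap1 at chr16:4077761-4078060 (-) and Dnaja3 at chr16:4683820-4684119 (+). The Hspe1 window is chr1:55087898-55088197 (+) and the window of one annotated Hspd1 start is chr1:55088194-55088493 (-).
Pmpca: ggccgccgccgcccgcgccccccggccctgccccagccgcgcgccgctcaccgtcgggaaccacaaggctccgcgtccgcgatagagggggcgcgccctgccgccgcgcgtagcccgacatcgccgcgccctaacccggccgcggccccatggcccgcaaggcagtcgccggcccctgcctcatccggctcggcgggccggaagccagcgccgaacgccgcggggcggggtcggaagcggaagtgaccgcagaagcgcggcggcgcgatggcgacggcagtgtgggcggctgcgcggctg
Pitrm1: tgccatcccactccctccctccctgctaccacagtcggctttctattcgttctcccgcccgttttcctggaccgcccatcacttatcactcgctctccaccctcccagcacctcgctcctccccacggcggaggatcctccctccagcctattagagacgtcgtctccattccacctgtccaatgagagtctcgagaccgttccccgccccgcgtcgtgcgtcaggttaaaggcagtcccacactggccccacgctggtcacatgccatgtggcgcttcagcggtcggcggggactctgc
Trap1: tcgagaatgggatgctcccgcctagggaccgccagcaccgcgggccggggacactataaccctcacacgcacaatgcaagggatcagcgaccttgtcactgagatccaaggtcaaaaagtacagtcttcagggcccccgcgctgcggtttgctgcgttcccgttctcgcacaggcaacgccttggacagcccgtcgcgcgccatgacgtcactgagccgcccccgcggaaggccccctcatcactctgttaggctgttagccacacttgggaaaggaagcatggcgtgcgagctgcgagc
Dnaja3: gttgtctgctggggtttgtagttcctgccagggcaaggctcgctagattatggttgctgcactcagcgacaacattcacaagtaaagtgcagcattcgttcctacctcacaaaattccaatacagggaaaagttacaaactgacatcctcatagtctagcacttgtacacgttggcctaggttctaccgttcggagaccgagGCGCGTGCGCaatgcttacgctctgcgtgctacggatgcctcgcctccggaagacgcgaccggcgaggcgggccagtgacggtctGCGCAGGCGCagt
Hspe1: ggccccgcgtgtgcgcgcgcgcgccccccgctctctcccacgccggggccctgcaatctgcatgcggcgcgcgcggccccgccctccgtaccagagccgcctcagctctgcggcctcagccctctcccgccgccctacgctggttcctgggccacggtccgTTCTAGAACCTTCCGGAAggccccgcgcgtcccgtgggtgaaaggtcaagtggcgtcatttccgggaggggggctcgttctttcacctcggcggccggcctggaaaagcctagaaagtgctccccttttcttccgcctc
Hspd1: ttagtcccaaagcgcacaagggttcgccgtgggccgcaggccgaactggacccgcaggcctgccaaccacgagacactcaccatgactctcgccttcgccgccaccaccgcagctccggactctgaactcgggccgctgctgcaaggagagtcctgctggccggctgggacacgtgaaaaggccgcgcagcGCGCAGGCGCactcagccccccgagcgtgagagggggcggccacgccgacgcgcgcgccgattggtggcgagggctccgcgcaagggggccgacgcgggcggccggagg

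The 4 ordered members had no searched motif in common: Dnaja3 held 2 matches to the NRF1 motif, and Pmpca, Pitrm1 and Trap1 held no match to any of the 5. The NRF1 motif was present in 4.60% of the 32851 mouse promoter windows and in 4 members, Hspd1, Tomm20, Timm8b and Dnaja3. In the printed Hspd1 window it lies at position -59. In Hspe1 the capitals form 1 run, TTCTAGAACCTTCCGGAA, made of TTCNNGAA at positions -89 and -79 and GAANNTTC at -84 from the start. The window of a second Hspd1 start, chr1:55087883-55088182 (-), covers the same run on the other strand. TTCNNGAA occurs in 8.52% of all windows and in those of 8 of the 27 members found in the RefSeq table, and GAANNTTC in 7.86% of all and in 3 members. CCGGAAGT was found in 5 members (3.89% of all windows) and TCAAGGTCA in Timm8b alone (0.423%). Tomm7, Timm21, Hspa9 and Tomm40l were not matched. A match describes these letters and is not evidence of a factor at the site.

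The matrix processing peptidase cuts presequences and is built of an alpha subunit, Pmpca, and a beta subunit, Pmpcb. Pmpca (chromosome 2, 26389339 to 26397122) stood at 151, 150.0 and 142 in untreated knockout libraries, at 127, 125 and 117 in treated wild-type libraries and at 111, 94.2 and 107 in treated knockout libraries. The 3 groups did not overlap. Pmpca fell by 0.24 ± 0.08 in treated knockout against treated wild type (limma adjusted p = 0.030) and by 0.50 ± 0.08 against untreated knockout (adjusted p = 0.00012). Treated wild type lay lower than untreated knockout by -0.26 ± 0.08 (adjusted p = 0.017).

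Pmpcb, the catalytic partner, showed no such order. Its group means were 129 ± 2.59 in untreated knockout, 139 ± 7.17 in treated wild-type and 132 ± 9.53 in treated knockout hearts (SD, n = 3), and its differences were 0.03 ± 0.07 for treated against untreated knockout (adjusted p = 0.76) and -0.08 ± 0.07 for treated knockout against treated wild type (adjusted p = 0.46). The Pmpca value divided by the Pmpcb value, a ratio that library scaling cannot move, though length and GC effects can, was 1.19, 1.14 and 1.11 in untreated knockout, 0.901, 0.866 and 0.896 in treated wild-type and 0.792, 0.776 and 0.804 in treated knockout libraries. These 3 groups did not overlap either. After the length and GC correction described below, the log2 ratio differed by -0.07 between the treated groups, from -0.17 before, and by -0.49 between treated and untreated knockout, from -0.53. Each of the 3 differences in the log2 ratio had an exact two-sided permutation p of 0.10, the smallest that 3 against 3 libraries allow, and an adjusted p of 0.15 over 12 such ratio tests.

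Pitrm1 degrades presequences after they are cut off. Its values were 55.2, 59.3 and 50.2 in untreated knockout, 42.0, 44.3 and 44.1 in treated wild-type and 37.2, 31.4 and 38.4 in treated knockout libraries. Again the groups were ordered without overlap. The difference between treated and untreated knockout was -0.61 ± 0.09 (adjusted p = 9.9e-05), that between treated knockout and treated wild type -0.28 ± 0.09 (adjusted p = 0.031), and that between treated wild type and untreated knockout -0.33 ± 0.09 (adjusted p = 0.013). Pfkp, whose end overlaps that of Pitrm1 on the other strand, had means of 50.6, 78.6 and 62.0 in the same order of groups, so reads in the overlap are uncertain. Of the 3 proteases, then, 2 were lower in each comparison and Pmpcb was called in none (66.7% of the 3 in each, beside the all-gene shares of 27.8%, 51.4% and 33.2%).

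Among the folding genes, Dnaja3 encodes a J-domain partner of the matrix Hsp70. It stood at 139, 131 and 129 in untreated knockout, 109, 116 and 100.3 in treated wild-type and 97.3, 73.3 and 86.7 in treated knockout libraries. Treated knockout replicate 2 was the lowest of the 9. The difference was -0.64 ± 0.10 between treated and untreated knockout (adjusted p = 0.00012), -0.34 ± 0.10 between treated knockout and treated wild type (adjusted p = 0.018) and -0.29 ± 0.10 between treated wild type and untreated knockout (adjusted p = 0.032). Coro7 and Vasn, whose models overlap Dnaja3, had group means of 12.6 to 16.6 and 8.998 to 9.97.

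Trap1, the mitochondrial Hsp90, had values of 134, 138 and 127 in untreated knockout, 111, 109.6 and 103 in treated wild-type and 96.2, 84.4 and 95.7 in treated knockout libraries. It fell by 0.53 ± 0.07 between untreated and treated knockout (adjusted p = 6.9e-05) and by 0.23 ± 0.07 between treated wild type and treated knockout (adjusted p = 0.034). The difference of treated wild type from untreated knockout was -0.30 ± 0.07 (adjusted p = 0.0074). The steps in Trap1 were close in size to those in Pmpca.

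Hspd1 (Hsp60) and Hspe1 (Hsp10) form the matrix folding chamber and its lid, and their genes lie head to head on chromosome 1, Hspd1 from 55077835 to 55088243 on the minus strand and Hspe1 from 55088132 to 55091307 on the plus strand. Hspd1 stood at 375, 366 and 349 in untreated knockout, 289, 286 and 219 in treated wild-type and 248, 218 and 242 in treated knockout libraries. Both treated groups lay below the untreated one and overlapped each other. Hspd1 differed by -0.62 ± 0.10 between treated and untreated knockout (adjusted p = 0.00019) and by -0.46 ± 0.10 between treated wild type and untreated knockout (adjusted p = 0.0031). Between treated knockout and treated wild type the difference was -0.16 ± 0.10 (adjusted p = 0.25). With each of the 9 libraries left out in turn, it ran from -0.29 to -0.09 and was called in 1 fit. That fit left out treated wild-type replicate 3, the lowest Hspd1 library of its group (-0.29, limma adjusted p = 0.012).

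Hspe1 was called in no comparison. Its values were 58.1, 58.3 and 61.3 in untreated knockout, 62.4, 71.6 and 48.6 in treated wild-type and 69.4, 71.8 and 60.4 in treated knockout libraries, and the groups overlapped. Its difference between treated and untreated knockout was 0.18 ± 0.12 (adjusted p = 0.22). The Hspe1 value divided by the Hspd1 value was 0.155, 0.159 and 0.176 in untreated knockout, 0.215, 0.250 and 0.222 in treated wild-type and 0.279, 0.330 and 0.249 in treated knockout libraries. The untreated libraries had the 3 lowest ratios, while the treated groups overlapped: the log2 ratio differed by 0.80 between treated and untreated knockout and by 0.49 between treated wild type and untreated knockout (exact two-sided permutation p = 0.10 for each, adjusted 0.15), and by 0.31 between the treated groups (exact p = 0.20, adjusted 0.24). With length and GC content corrected these were 0.70, 0.63 and 0.07. The annotation names 5 processed pseudogenes of Hspd1 and 6 of Hspe1, and the 2 genes overlap on opposite strands, so reads shared with these copies or in the overlap make both levels uncertain.

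**Figure D3:**
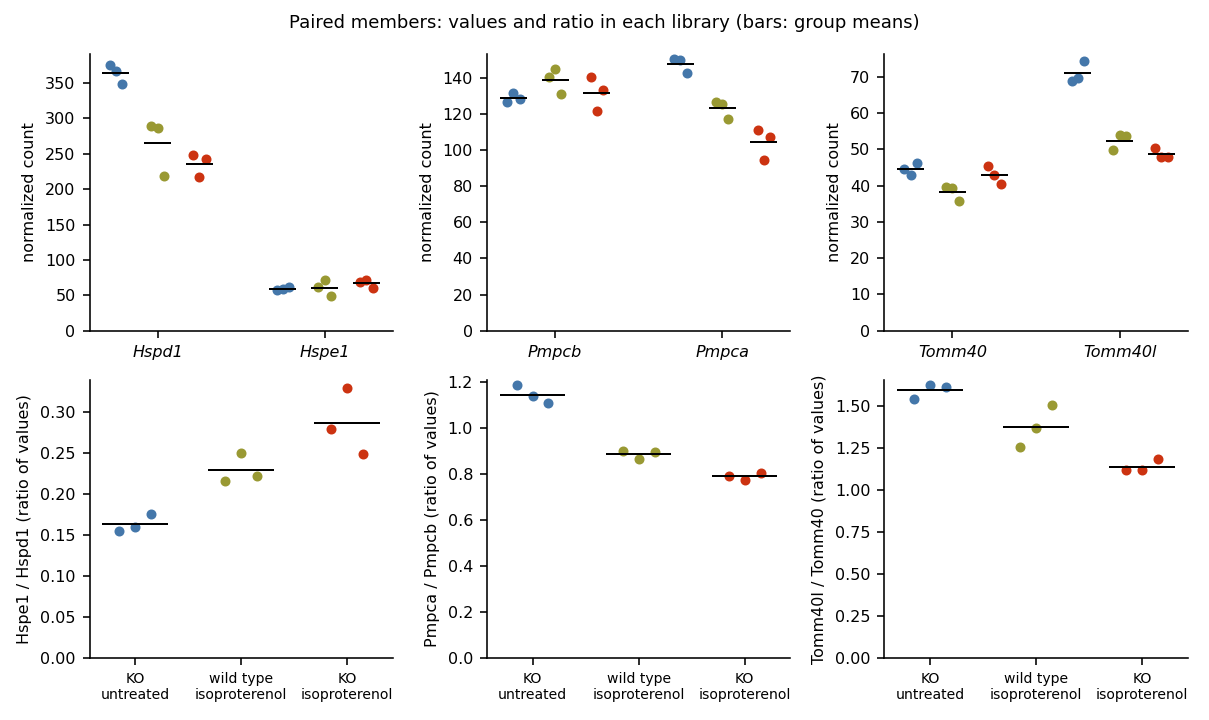
Upper panels give the normalized count (vertical axis) of Hspd1 and Hspe1, of Pmpcb and Pmpca and of Tomm40 and Tomm40l in each library, coloured by group, and lower panels give the ratio of the values; bars are group means. Means are given for untreated knockout, treated wild type and treated knockout, without correction for length and GC content. The ratio moved in the same order in Pmpca/Pmpcb (1.15, 0.888 and 0.791) and Tomm40l/Tomm40 (1.59, 1.38 and 1.14). It moved in the opposite order in Hspe1/Hspd1 (0.163, 0.229 and 0.286). Correction for length and GC content together brought the log2 step between the treated groups to -0.07, 0.07 and 0.07, respectively.

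The TOM complex and its helpers were represented by 9 genes. Tomm70a, the receptor that takes carrier precursors from cytosolic chaperones, stood at 69.1, 73.9 and 74.1 in untreated knockout, 79.6, 76.3 and 68.5 in treated wild-type and 63.0, 53.3 and 62.2 in treated knockout libraries. The 3 treated knockout libraries were the lowest of the 9. Tomm70a was lower there by -0.33 ± 0.08 against treated wild type (adjusted p = 0.013) and by -0.28 ± 0.08 against untreated knockout (adjusted p = 0.013), while treated wild type differed from untreated knockout by 0.05 ± 0.08 (adjusted p = 0.71).

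The presequence receptor Tomm20 had values of 34.8, 43.3 and 37.2 in untreated knockout, 40.9, 51.1 and 37.5 in treated wild-type and 41.2, 37.6 and 42.4 in treated knockout libraries, and the groups overlapped. Its difference was -0.08 ± 0.11 between treated knockout and treated wild type (adjusted p = 0.61) and 0.08 ± 0.11 between treated and untreated knockout (adjusted p = 0.59). Tomm22, the central receptor that joins Tomm20 to the channel, ranged from 47.0 to 57.6 over the 9 libraries and was called in no comparison. Tomm34, a cytosolic co-chaperone that binds precursors, was lower in treated wild type than in untreated knockout by -0.30 ± 0.10 (adjusted p = 0.039), with values of 14.8 to 16.8 against 16.7 to 21.6 that overlapped.

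Tomm40 forms the channel of the outer membrane, and Tomm40l is its paralogue. Tomm40 stood at 44.6, 42.9 and 46.1 in untreated knockout, 39.7, 39.3 and 35.7 in treated wild-type and 45.3, 42.8 and 40.5 in treated knockout libraries. Treated wild-type libraries were the 3 lowest. Tomm40 differed by 0.16 ± 0.08 between treated knockout and treated wild type (adjusted p = 0.13), by -0.06 ± 0.08 between treated and untreated knockout (adjusted p = 0.57) and by -0.22 ± 0.08 between treated wild type and untreated knockout (adjusted p = 0.042). This last call was kept in 7 of 20 alternative fits, and after length and GC correction the difference was -0.01 (adjusted p = 0.91).

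Tomm40l (chromosome 1, 171216011 to 171222514) separated untreated from treated libraries, with values of 68.7, 69.7 and 74.5 in untreated knockout, 49.7, 53.8 and 53.6 in treated wild-type and 50.5, 47.8 and 47.8 in treated knockout. The treated groups overlapped. It fell by 0.53 ± 0.07 between untreated and treated knockout (adjusted p = 4.5e-05) and was lower by -0.43 ± 0.07 in treated wild type than in untreated knockout (adjusted p = 0.00051). Nr1i3, which overlaps Tomm40l on the other strand, had group means of 0.515 to 1.29. The part of reads in the overlap was not tested. The Tomm40l value divided by the Tomm40 value was 1.54, 1.62 and 1.61 in untreated knockout, 1.25, 1.37 and 1.504 in treated wild-type and 1.11, 1.12 and 1.18 in treated knockout libraries, again 3 groups without overlap (exact two-sided permutation p = 0.10 for each pair, adjusted 0.15). With length and GC content corrected together, the order of the treated groups in this ratio was not kept. The log2 ratio then differed by 0.07 between treated knockout and treated wild type, from -0.27 before. For treated against untreated knockout it differed by -0.35, from -0.49. Length and GC content were not corrected apart from each other.

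The small TOM subunits stabilise the complex, and Tomm7 also holds the kinase PINK1 at the outer membrane of damaged mitochondria. Tomm7 (chromosome 5, 23838944 to 23844161) stood at 33.1, 31.2 and 32.6 in untreated knockout, 34.5, 34.0 and 30.4 in treated wild-type and 41.5, 42.2 and 46.9 in treated knockout libraries. All 3 treated knockout libraries lay above the other 6. Tomm7 rose by 0.39 ± 0.08 against treated wild type (adjusted p = 0.0042) and by 0.42 ± 0.08 against untreated knockout (adjusted p = 0.00073), ratios of group means of 1.32 and 1.35.

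Tomm6 had values of 25.4, 22.1 and 21.6 in untreated knockout, 21.5, 18.8 and 20.9 in treated wild-type and 26.8, 28.0 and 23.8 in treated knockout libraries. Treated knockout lay above treated wild type without overlap, by 0.35 ± 0.09 (adjusted p = 0.016), and overlapped untreated knockout (0.18 ± 0.09, adjusted p = 0.12). Tomm6 overlaps an antisense transcript and a longer gene model on its own strand, so its reads are uncertain. Tomm5 ranged from 44.2 to 62.7 and was called in no comparison. Of the 9 Tomm genes, Tomm34 included, 3 were called in each comparison (33.3%, beside 27.8%, 51.4% and 33.2% of all genes): 2 were higher and 1 lower between the treated groups, 1 higher and 2 lower between treated and untreated knockout, and 0 higher and 3 lower between treated wild type and untreated knockout.

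Of the 8 genes of the TIM23 complex and its motor, 1 was lower in treated knockout than in treated wild type (12.5%, beside 15.9% of all genes), 2 were lower than in untreated knockout (25%, beside 27.4%), and 0 were called between treated wild type and untreated knockout. Hspa9, the matrix Hsp70 that pulls precursors through the channel, had the highest value of all members: 661, 629.8 and 615 in untreated knockout, 623, 693 and 550.0 in treated wild-type and 508, 442 and 523 in treated knockout libraries. The 3 treated knockout libraries were the lowest of the 9. Hspa9 was lower there by -0.34 ± 0.09 against treated wild type (adjusted p = 0.016) and by -0.37 ± 0.09 against untreated knockout (adjusted p = 0.0039), while the other two groups differed by -0.04 ± 0.09 (adjusted p = 0.79). The annotation names 1 processed pseudogene of Hspa9, with which reads could be shared.

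Grpel1, the nucleotide exchange factor of Hspa9, was not called, with group means of 75.6 ± 6.33, 78.4 ± 14.0 and 66.5 ± 7.71 in untreated knockout, treated wild type and treated knockout (SD, n = 3). Timm21, which couples the translocase to the respiratory chain, had values of 27.1, 26.4 and 28.3 in untreated knockout, 30.4, 23.9 and 23.9 in treated wild-type and 24.7, 20.1 and 20.7 in treated knockout libraries. It was lower in treated than in untreated knockout without overlap, by -0.31 ± 0.11 (adjusted p = 0.023), and differed from treated wild type by -0.24 ± 0.11 (adjusted p = 0.099). Timm21 lies inside the span of Fbxo15 on the other strand, and without strand information reads of the 2 cannot be told apart.

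The channel gene Timm23 stood at 145, 155 and 139 in untreated knockout, 152, 157 and 126 in treated wild-type and 134, 137 and 127 in treated knockout libraries, and the groups overlapped. Its differences were -0.12 ± 0.09 between the treated groups (adjusted p = 0.29) and -0.14 ± 0.09 between treated and untreated knockout (adjusted p = 0.18). The remaining TIM23 genes were called in no comparison: Timm17a ranged from 70.5 to 85.2, Timm17b from 14.6 to 19.2, the receptor Timm50 from 28.9 to 35.1 and the motor tether Timm44 from 63.4 to 82.5. The ratio of the alternative channel partners Timm17b and Timm17a overlapped in all comparisons (exact two-sided permutation p from 0.20 to 0.80).

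The small TIM chaperones carry hydrophobic precursors across the intermembrane space. Timm13 had values of 33.7, 31.0 and 31.1 in untreated knockout, 26.1, 24.6 and 20.9 in treated wild-type and 32.2, 35.7 and 33.4 in treated knockout libraries. The treated wild-type libraries were the 3 lowest, without overlap, and the knockout groups overlapped each other. Timm13 was higher in treated knockout than in treated wild type by 0.49 ± 0.09 (adjusted p = 0.0025), lower in treated wild type than in untreated knockout by -0.41 ± 0.09 (adjusted p = 0.0037), and differed by 0.08 ± 0.09 between the knockout groups (adjusted p = 0.48).

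Timm8b, which works as a partner of Timm13, stood at 37.9, 38.4 and 36.9 in untreated knockout, 38.9, 45.1 and 43.2 in treated wild-type and 47.4, 42.0 and 45.7 in treated knockout libraries. It was higher in treated than in untreated knockout, without overlap, by 0.25 ± 0.08 (adjusted p = 0.018), and differed by 0.09 ± 0.08 between the treated groups (adjusted p = 0.43). The carrier pair Timm9 and Timm10 and the carrier channel Timm22 were called in no comparison, with ranges of 7.79 to 12.3, 15.5 to 21.8 and 18.2 to 26.2. Timm8a1 rested on 50 to 111 reads a library and had the widest spread within groups, with values of 7.77, 10.3 and 4.06 in treated knockout, and it was not called.

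Timmdc1 belongs by sequence to the Tim17/Tim22/Tim23 family but assists the assembly of complex I. Its values were 28.1, 31.6 and 29.0 in untreated knockout, 26.0, 24.7 and 24.8 in treated wild-type and 23.4, 19.0 and 26.0 in treated knockout libraries. It was lower in treated than in untreated knockout by -0.37 ± 0.10 (adjusted p = 0.0083), without overlap, and differed by -0.15 ± 0.10 between the treated groups (adjusted p = 0.30).

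Levels of different genes were compared per kilobase of the longest annotated protein-coding transcript, as the mean over the 9 libraries. On this scale Hspa9 led with 191, followed by Timm23 with 121, Hspd1 with 119, Pmpcb with 82.4 and Hspe1 with 80.7. Timm9 was lowest with 3.85, and Timm8a1 next with 6.52. The small TIM chaperones ran from Timm9 up to Timm8b with 80.5, above the matrix chaperones Trap1 with 47.9 and Dnaja3 with 41.2.

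Several properties of the libraries moved with the groups. The 8 cardiomyocyte markers summed to 43850 to 47968 in untreated knockout, 38225 to 44008 in treated wild-type and 40952 to 43544 in treated knockout libraries. Between treated and untreated knockout the sums did not overlap, and 2 markers were lower and 0 higher. In each of the other comparisons the sums overlapped, and 2 markers were higher and 2 lower. The summed macrophage and erythroid markers overlapped between all groups. The summed level of 6 endothelial markers was 935 to 1037 in untreated knockout, 1339 to 1478 in treated wild-type and 1731 to 2100 in treated knockout libraries, with 5 of 6 markers higher in treated knockout than in treated wild type and 6 of 6 higher than in untreated knockout; none of the 6 was at 0 in any library. The 4 atrial myocyte markers summed to 1111 to 2484 in untreated knockout, 53.5 to 844 in treated wild-type and 87.8 to 119 in treated knockout libraries, all 4 were lower in both treated groups, and Sln was at 0 in 5 libraries and Myl7 in 1. The 5 fibroblast markers summed to 825 to 898, 1243 to 2337 and 1338 to 1376 in the same order, and the 3 markers of dividing cells to 8.82 to 12.3, 77.3 to 108 and 72.2 to 142. The 3 smooth muscle markers summed to 109.6 to 133, 217 to 274 and 181 to 209.6, and the 2 adipocyte markers to 5.41 to 24.9, 0 to 0.192 and 0 to 0.207, with both at 0 in 4 libraries each. The part of these shifts, and of the mitochondrial share of reads, in the members' differences was not tested.

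Transcript length moved with the difference between the treated groups. The short members, which were 20 of the 31 and reached up to 2562 bases, held all 3 that were higher and 1 of the 6 that were lower. Among all genes tested, 2834 were of that length, of which 519 were higher and 139 lower. The Spearman correlation of length with the difference was -0.56 over the members and -0.34 over all genes tested. Between treated and untreated knockout it was -0.58 and -0.11. Over all genes tested, the median difference between the treated groups was 0.09 for genes of up to 2562 bases. It was -0.04 for those up to 4384 bases and -0.11 for longer ones. After each library was corrected for length and GC content, 3 members were called between the treated groups (9.68%, beside 18.5% of all genes under the same correction): Tomm7 (0.34, adjusted p = 0.0076), Dnaja3 (-0.30, adjusted p = 0.034) and Trap1 (-0.23, adjusted p = 0.036). Timm13 then stood at 0.23 (adjusted p = 0.065), Tomm6 at 0.15 (0.29), Hspa9 at -0.24 (0.057), Tomm70a at -0.15 (0.18), Pitrm1 at -0.20 (0.12) and Pmpca at -0.17 (0.11), each with its limma adjusted p in parentheses.

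Between treated and untreated knockout the same correction left most values in place. Dnaja3 stood at -0.61, Hspd1 at -0.62, Pitrm1 at -0.62, Pmpca at -0.50, Tomm40l at -0.49 and Tomm7 at 0.35, all called, while Timm8b moved to 0.07 (adjusted p = 0.47) and Timm23 to -0.20 (adjusted p = 0.038). In all, 12 members were called after correction (38.7%, beside 52.2% of all genes). Between treated wild type and untreated knockout, 7 members were called after correction (22.6%, beside 30.7%), with Timm13 at -0.23 (adjusted p = 0.046), and Tomm40 at -0.01 (0.91) and Tomm34 at -0.21 (0.14) not called.

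**Figure D4:**
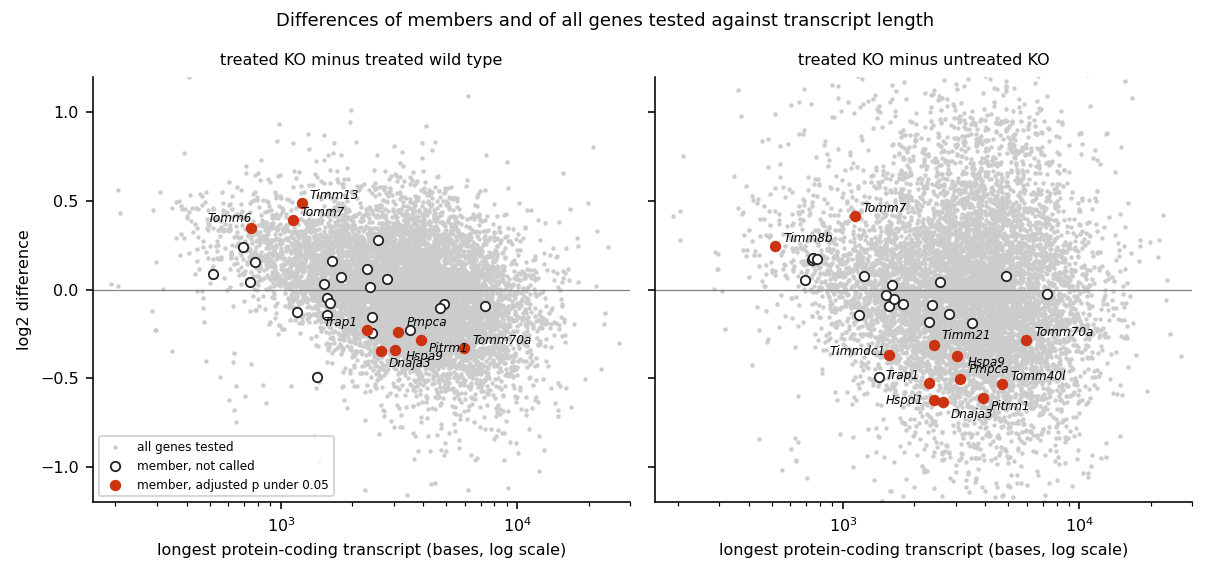
Log2 difference (vertical axis, log2 units) against the length of the longest protein-coding transcript (horizontal axis, bases, log scale) for all genes tested in grey and the 31 members, filled where called; some genes beyond the limits of the axis are not drawn. Between the treated groups the 3 members called higher, Tomm7, Tomm6 and Timm13, are among the 20 short members, up to 2562 bases. Of the 2834 genes tested of that length, 519 were called higher.

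The split between higher and lower depended on scaling. When libraries were scaled to equal sums over genes outside the mitochondrial genome, the median of all genes moved up by 0.11 between treated and untreated knockout, and the members' calls moved from 2 higher and 10 lower to 5 and 8. Between the treated groups they moved from 3 higher and 6 lower to 5 and 4, and between treated wild type and untreated knockout from 0 and 9 to 1 and 6. Over all genes the split between the treated groups moved from 1023 higher and 1356 lower to 1395 and 1061, that between treated and untreated knockout from 2043 and 2345 to 2866 and 1661, and that between treated wild type and untreated knockout from 1399 and 1440 to 1813 and 1104. Under that scaling Tomm40 (0.21, adjusted p = 0.045) and Timm10 (0.29, adjusted p = 0.043) were also called higher between the treated groups, and Pitrm1 (-0.24, adjusted p = 0.054) and Trap1 (-0.18, adjusted p = 0.052) were not called. No called member changed direction.

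Single libraries decided several calls between the treated groups. Tomm7 and Timm13 were called whichever of the 9 libraries was left out. Without treated knockout replicate 2 the adjusted p was 0.065 for Dnaja3, 0.057 for Hspa9, 0.064 for Tomm6, 0.10 for Pmpca, 0.12 for Pitrm1 and 0.11 for Trap1. Without treated wild-type replicate 2 it was 0.070, 0.068, 0.063, 0.082, 0.082 and 0.085 for the same genes. Each of these fits called 4 members. They were Tomm70a, Tomm7 and Timm13, which kept their calls, and another member that the main fit did not call. Without treated wild-type replicate 1, Tomm70a (0.051), Pmpca (0.091), Pitrm1 (0.052) and Trap1 (0.10) were not called, and without treated wild-type replicate 3, Pitrm1 was not (0.054).

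Between treated and untreated knockout, Tomm40l, Tomm7, Hspa9, Pmpca, Pitrm1, Hspd1, Trap1, Dnaja3 and Timmdc1 were called in each of the 20 alternative fits, leaving out each library included. Tomm70a was not called without treated knockout replicate 2 (adjusted p = 0.052) or when scaled to genes outside the mitochondrial genome (-0.17, adjusted p = 0.070). Timm21 was not called without treated knockout replicate 2 (0.082) or 3 (0.074) or untreated knockout replicate 1 (0.051) or 3 (0.070), or under that scaling (-0.21, adjusted p = 0.098), and Timm8b not without treated knockout replicate 1 (0.074) or 3 (0.051) or untreated knockout replicate 3 (0.055). Between treated wild type and untreated knockout, Tomm40l, Hspd1 and Trap1 were called in all 20, and 4 members were called without untreated knockout replicate 2. Tomm40 kept its call in 7 of the 20, Tomm34 in 8, Dnaja3 in 13, Pmpca in 18, and Timm13 and Pitrm1 in 19. Dnaja3 was not called there without treated wild-type replicate 1 (0.057) or 3 (0.093), or untreated knockout replicate 1 (0.11), 2 (0.076) or 3 (0.054). Tomm34 was not called without treated wild-type replicate 1 (0.11) or 2 (0.10), untreated knockout replicate 2 (0.12) or 3 (0.15), or treated knockout replicate 1 (0.052).

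A further 29 genes of import and mitochondrial protein quality control were chosen from general knowledge of the pathway. The choice was made with earlier results of these data known, and 24 of the genes passed the filter. Between the treated groups 3 were higher and 1 lower (16.7% called, median -0.04): Romo1, a small inner membrane protein, by 0.49 ± 0.11 (adjusted p = 0.0060), the intermembrane space protease Htra2 by 0.37 ± 0.10 (0.020), the Hspa9 partner Dnlz by 0.30 ± 0.09 (0.022) and the aminopeptidase Xpnpep3 by -0.43 ± 0.13 (0.030). After length and GC correction none of the 4 was called: Romo1 stood at 0.08 (adjusted p = 0.59), Htra2 at 0.19 (0.19), Dnlz at 0.24 (0.073) and Xpnpep3 at -0.28 (0.15). Between treated and untreated knockout 3 were higher and 8 lower (45.8%, median -0.05). The disaggregase Clpb fell by 0.74 ± 0.07 (adjusted p = 3.2e-06), from a mean of 66.9 to 39.6, the insertase Oxa1l by 0.35 ± 0.07 (0.00063) and Clpx, the unfolding subunit of the matrix ClpXP protease, by 0.48 ± 0.10 (0.0011). Romo1 rose by 0.52 ± 0.11 (0.0012). Between treated wild type and untreated knockout 1 was higher and 6 lower (29.2%, median -0.07), with Clpb at -0.56 ± 0.07 (5.0e-05), Grpel2, a second exchange factor for Hspa9, at 0.54 ± 0.10 (0.0013), Htra2 at -0.47 ± 0.10 (0.0040) and Oxa1l at -0.30 ± 0.07 (0.0040). In all 3 comparisons the share called lay below that of all genes given above.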

How the data were processed

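Total RNA of the 9 libraries was prepared with an Illumina TruSeq kit, per the labels' protocols, with no strand setting stated. Per the submitters' processing notes, cutadapt, RSEM 1.17, limma and GRCm38 were used; neither the aligner nor the annotation is given in the sources used here. Signal values as deposited are the authors' normalized expected counts per gene. In each library 100% of the values were whole multiples (tolerance 0.02 reads) of the value of 1 read, so reads were recovered for edgeR 4.0.16 and DESeq2 1.42.0.

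Values were transformed to log2(value + 1), which understates changes of low genes. The 8543 of 13539 genes that reached 10 in at least 3 libraries were fitted by limma 3.58.1 (R 4.3.3) with a mean-variance trend, 3 group means and no covariate, and p-values were adjusted over all 8543. Every member is named; sample values are given for members called in either comparison of treated knockout hearts and for Hspd1, Hspe1, Hspa9, Tomm20, Tomm40 and Timm23, and the 4 other pathway genes of smallest p are named in each comparison. The members and gene lists were chosen with earlier results of these data known. Ratios of paired members were tested by exact two-sided permutation over libraries, 12 tests adjusted together. Length and GC content came from GENCODE models of GRCm38 (8494 tested genes matched) and were removed from each library with natural splines (5 degrees of freedom). The limma fit was tested on simulated data. No 2 libraries were identical. Rows with an identifier but no symbol (232) were kept in the fit. Alternatives were a pseudocount of 10, no filter, 2 other scalings, a fit of 2 groups, no trend, the count tools, the length and GC correction, replicate number as a term, and each library left out; the length and GC correction of the ratios was added after seeing the data.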

Additional observations from a re-analysis of the deposited data

How the results depend on the processing

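Between the treated groups the main count was 9 members, 3 higher and 6 lower. Scaling to genes outside the mitochondrial genome gave 5 higher, a fit of the 2 groups alone gave 3 lower, and the length and GC correction gave 3 in all, 1 higher and 2 lower; the cause was not tested. Leaving out each library gave 4 to 11 in all, with 1 to 8 lower. Between treated and untreated knockout, the count of 2 higher became 5 under that scaling and 1 under the length and GC correction, and 1 to 2 when each library was left out. Between treated wild type and untreated knockout, that scaling gave 1 higher, and leaving out each library gave 4 to 10 in all and 4 to 10 lower. On the recovered reads, edgeR called 3 higher and 6 lower, 2 and 10, and 0 and 8 members in the 3 comparisons, and 1160 and 1269, 2139 and 2208, and 1389 and 1410 of all genes. No called value changed sign in 600 refits of 30 called values, and 84 of 1260 refits of the 63 other values did. Timm8a1 and Timm9, with few reads, limit what could be detected; 3 libraries a group, and no untreated wild type, limit all comparisons.

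The groups share replicate numbers. Deviations from the group means of libraries with the same number correlated at 0.183, -0.0439 and -0.14 for treated wild type with treated knockout. They correlated at 0.121, -0.0748 and -0.0937 for the knockout groups, and at 0.0725, 0.0378 and 0.109 between treated wild type and untreated knockout. Not every library correlated best with its own number. With 3 libraries a group, these values cannot decide whether the numbers pair the libraries. With replicate number as a block the counts were 3 higher and 6 lower, 2 and 11, and 0 and 8; with the block and the length and GC correction they were 2 in all between the treated groups (1 higher and 1 lower), and 1 higher between treated and untreated knockout.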
